A study of Craterostigma plantagineum with 12 samples.

Results

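Abscisic acid (ABA) is sensed and passed on in plants by a short chain of 3 protein classes, the ABA receptors, the protein phosphatases of type 2C (PP2C) and the SnRK2 protein kinases. Their transcripts were followed through the drying and rewatering of leaves of Craterostigma plantagineum, a resurrection plant whose leaves lose nearly all of their water and recover when watered. Members were the contigs, that is assembled pieces of transcript, whose green-plant description holds "abscisic acid receptor", "protein phosphatase 2C", "SAPK" or "SRK2". The rule found 226 of 48045 contigs, of which 24 were receptors, 188 were PP2C and 14 were SnRK2, and no contig fell in more than 1 class. The 24 receptor contigs shared 16 best database hits, the 188 PP2C contigs 119 and the 14 SnRK2 contigs 11, so a gene can be counted more than once. The rule leaves out 7 contigs described as SnRK2 in other words and 5 PP2C contigs spelled in another way. After a filter on low read counts, 24 receptor, 184 PP2C and 13 SnRK2 contigs were tested.

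ABA accumulates in leaves that lose water. The receptors, named PYR1 and PYL (PYR1-like), bind it in a pocket and then block the PP2C of clade A, a branch of this large family that otherwise keeps the SnRK2 kinases inactive. Freed SnRK2 kinases phosphorylate transcription factors of the bZIP group and the anion channels that close stomata, and in Arabidopsis the clade A PP2C genes are themselves switched on by ABA.

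Leaves were taken in 4 states with 3 libraries each. Fresh leaves came from watered plants at 100% relative water content (RWC). Partly dried leaves had about 60% RWC after 3 to 4 days without water, and fully dried leaves had 2% RWC after 15 days. Rehydrated leaves came from dried plants that had lain under water for 24 h. Growth conditions were the same for all states (60% relative humidity, a cycle of 14 h light and 8 h dark), and a library held pooled leaves of 6 to 9 plants. Watered plants of matching age were not analysed here, so water content and time without water cannot be told apart.

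Libraries held 14784251 to 21271288 reads, and levels are given as RPKM, that is reads scaled to the length of the contig and the total of the library. Whole leaves were sampled, so fewer cells of a type and less RNA per cell cannot be told apart. Contigs of 28 leaf markers (photosynthesis genes) summed to 30790.5 to 52719.9 RPKM in fresh leaves, 7130.7 to 7972.2 at 60% RWC, 4627.9 to 7025.9 at 2% RWC and 21300.0 to 30242.2 after rehydration. Contigs of 7 guard cell markers summed to 20.9 to 46.0, 19.2 to 24.2, 9.6 to 11.8 and 51.7 to 65.6 in the same order. Epidermis and cuticle markers, 17 contigs, summed to 82.4 to 200.9 RPKM in fresh leaves, 67.9 to 84.9 at 60% RWC, 28.5 to 32.7 at 2% RWC and 89.3 to 102.0 after rehydration. Of the 16 tested, 15 were called lower at 2% RWC than in fresh leaves and 14 higher on rehydration, by the edgeR test given below. Among all tested contigs the shares were 34.9% and 31.1%. Vascular markers, 35 contigs, summed to 257.5 to 433.4, 196.2 to 242.4, 235.0 to 320.6 and 142.1 to 169.9 RPKM in the order of the states. Of the 34 tested, 15 were called lower after rehydration than in fresh leaves, against 5.69% of all tested contigs. In that comparison no call of a member held under every alternative analysis given below, and the marker calls were not tried under them. No leaf or guard cell marker was at 0 in all libraries of a state, while 1 epidermis marker was at 60% and at 2% RWC and 3 vascular markers were at 2% RWC. The part of these shifts in the values of the ABA genes was not tested. The fresh libraries were the least alike: the coefficient of variation of a member between replicates had a median of 52.6% for receptors, 41.7% for PP2C and 27.3% for SnRK2 there, against 23.7%, 12.3% and 6.71% at 60% RWC.

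Read as sums, the receptors and the PP2C of 6 numbered groups went opposite ways at 60% RWC. The SnRK2 sums stayed within a narrower range. Receptor levels summed to 393, 686 and 644 RPKM in the 3 fresh libraries, to 174, 165 and 181 at 60% RWC, to 426, 376 and 435 at 2% RWC and to 743, 818 and 1272 after rehydration. At 60% RWC all 3 sums lay under every sum of the other states, and after rehydration all 3 lay over them. PP2C contigs numbered 16, 24, 37, 50, 51, 53 and 77, described further on as 6 groups because 50 was joined with 53, summed to 1130, 358 and 748 RPKM in fresh leaves, 2749, 2565 and 2592 at 60% RWC, 1753, 1614 and 1635 at 2% RWC and 650, 641 and 503 after rehydration. The sums at 60% RWC were again apart from all others, here at the top. Numbers 50, 51 and 53 were taken in after values had been seen. All 188 PP2C contigs summed to 4156, 2178 and 3372 RPKM in fresh leaves and 5068, 4649 and 4680 at 60% RWC. At 2% RWC they summed to 3905, 3662 and 3594 and after rehydration to 2812, 2791 and 2999. SnRK2 sums were 407 ± 54.9, 496 ± 3.64, 323 ± 15.8 and 364 ± 26.4 RPKM (SD, n = 3) in the order of the states. Divided library by library, the 6 PP2C groups had 2.88, 0.523 and 1.16 times the summed receptor level in fresh leaves, 15.8, 15.6 and 14.4 times at 60% RWC, 4.12, 4.29 and 3.76 times at 2% RWC and 0.875, 0.784 and 0.396 times after rehydration. The sums of the 6 groups at 2% RWC owed much to 1 contig, Cp_V2_contig_39930 of number 51. Without it they were 1111, 1030 and 999.7 RPKM, no longer above fresh replicate 1 with 1123. The ratios at 2% RWC were then 2.61, 2.74 and 2.30, while at 60% RWC the ratios without it were 15.7, 15.6 and 14.3. These ratios describe transcripts, with each piece of a transcript counted for itself, and carry no test. Fresh replicate 1 had the highest PP2C sum and the lowest receptor sum of the fresh leaves, and fresh replicate 2 the reverse.

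**Figure D1:**
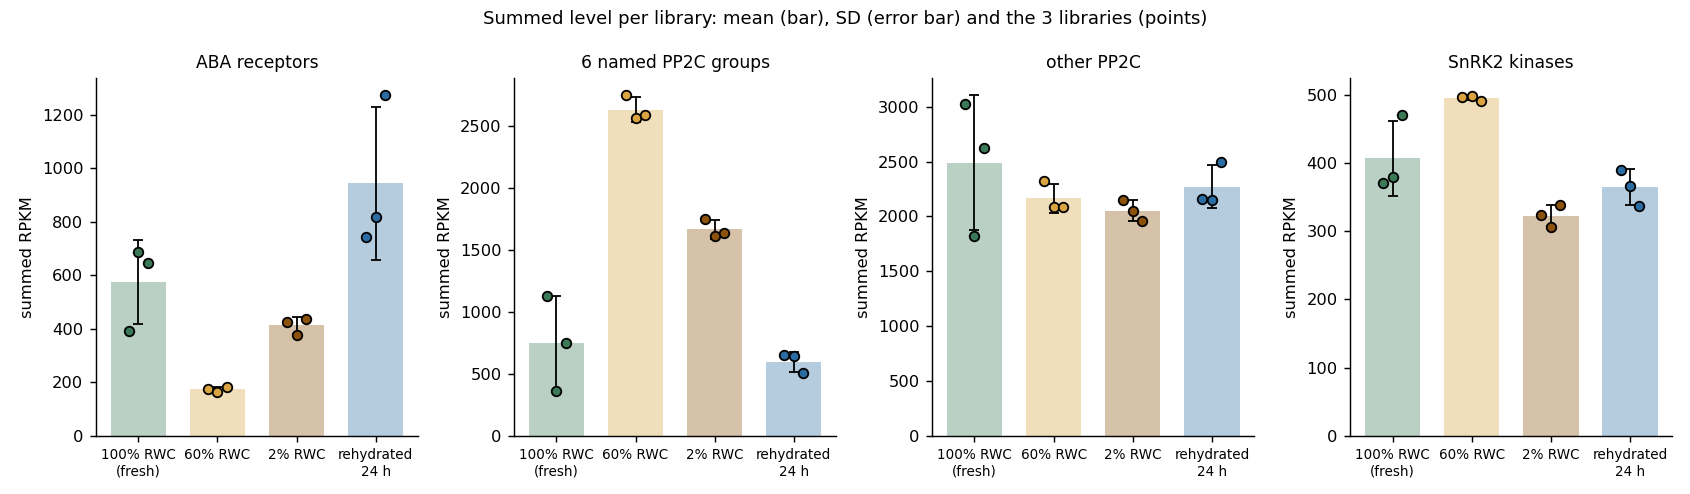
Summed RPKM of a class (y axis) in each of the 12 libraries (points), with the mean of each state (bar) and its SD (error bar, n = 3), for the receptors, the PP2C of the 6 named groups, the other PP2C and the SnRK2 contigs. At 60% RWC the receptor sums lie between 165 and 181 and the sums of the 6 PP2C groups between 2565 and 2749, the lowest and the highest of the cycle.

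Receptor contigs fell together at 60% RWC. Of the 24, 19 were lower and 1 was higher than in fresh leaves, with a median log2 fold of -2.97 over all 24, where 38.9% of all 46494 tested contigs were called, 15.6% higher and 23.3% lower, with a median of -0.06. A contig is called here at an adjusted p below 0.05 in the quasi-likelihood test of edgeR, with Benjamini-Hochberg adjustment over all tested contigs, and every adjusted p in this text is from that test. Of the 19 lower calls, 14 held under every alternative analysis and with any single library left out. At 2% RWC, 12 were lower and 4 higher than in fresh leaves (60.9% of all contigs called, 26.0% higher and 34.9% lower), and against 60% RWC 11 were higher and 2 lower (44.5% called, 19.5% higher and 25.0% lower). Rehydration raised 14 over 2% RWC and lowered 2 (56.5% called, 31.1% higher and 25.4% lower). The highest mean level of the cycle was after rehydration for 15 of the 24 receptors (62.5%, against 31.8% of all tested contigs) and the lowest was at 60% RWC for 16 (66.7%, against 21.5%). The F test across the 4 states called 22 of 24 receptors, 139 of 184 PP2C and 9 of 13 SnRK2 contigs, where it called 71.6% of all tested contigs.

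**Figure D2:**
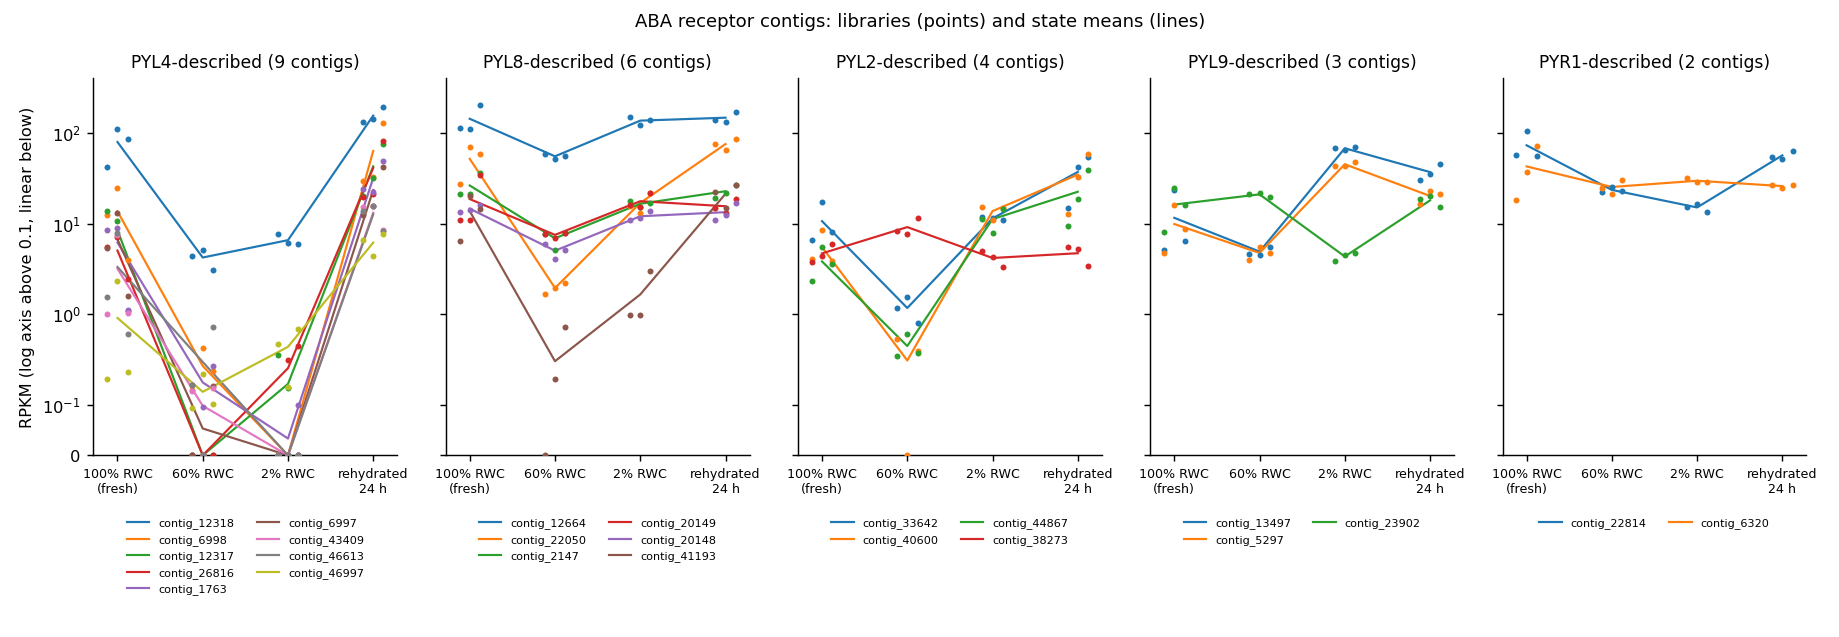
RPKM of the 24 receptor contigs (y axis, logarithmic above 0.1 and linear under it) in each library (points) and as state means (lines), in panels by the receptor named in the description. PYL4 contigs stay low at 60% and 2% RWC and rise after rehydration. PYL8 and most PYL2 contigs dip at 60% RWC and are higher again at 2%, with 2 PYL8 contigs still called under fresh leaves. The PYL9 contigs part into 2 that peak at 2% RWC and 1 that is lowest there.

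The 9 PYL4 contigs, with 7 best hits, stayed low in both dried states. PYL4 belongs in Arabidopsis to the receptors that act as single molecules and bind ABA tightly. At 60% and at 2% RWC, 8 of the 9 were lower than in fresh leaves, none was called between 60% and 2%, and all 9 were higher after rehydration than at 2% RWC, each under every alternative and with any library left out. The contig at the highest level, Cp_V2_contig_12318, had 41.7, 112 and 84.98 RPKM in fresh leaves, 4.43, 5.18 and 3.09 at 60% RWC, 7.69, 6.06 and 5.99 at 2% RWC and 132, 141 and 194 after rehydration. The dried libraries were no higher than 7.69 RPKM and the fresh and rehydrated ones at least 41.7, with no overlap. It fell at 60% RWC (edgeR log2 fold -4.08, SE 0.33, adjusted p = 4.33e-06), differed from there to 2% RWC by less than the threshold (log2 fold 0.75, SE 0.31, adjusted p = 0.0673) and rose on rehydration (log2 fold 4.18, SE 0.33, adjusted p = 2.01e-06).

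Most of the other PYL4 contigs nearly vanished from the dried leaves. Cp_V2_contig_6998 had 12.4, 24.7 and 3.96 RPKM in fresh leaves, 0.146, 0.426 and 0.236 at 60% RWC, 0, 0 and 0 at 2% RWC and 29.4, 32.6 and 128 after rehydration. It had no read at 2% RWC, which is a drop of at least 51.5-fold from fresh leaves, and after rehydration it was at least 221-fold higher than at 2% RWC, with 3 reads per library as the floor. Cp_V2_contig_6997, Cp_V2_contig_43409 and Cp_V2_contig_46613 also had no read at 2% RWC and were at least 40.2-fold, 23.4-fold and 18.9-fold higher after rehydration. Cp_V2_contig_26816 was without reads at 60% RWC, at least 7.68-fold under fresh leaves. Cp_V2_contig_1763 kept 1 read at 2% RWC against 1085 after rehydration, a ratio of 899.8 with a 95% counting interval of 161 to 35573, and such intervals and floors cover counting error only. Cp_V2_contig_46997 was the member at the lowest level and the exception, with 0.911 ± 1.21 RPKM in fresh leaves and 0.1397 ± 0.0711 at 60% RWC, not called (edgeR log2 fold -2.47, SE 0.98, adjusted p = 0.0661). The lower call of Cp_V2_contig_46613 at 60% RWC was lost without fresh replicate 2 and in other alternatives. PYL4 contigs made up 22.95, 28.3 and 15.1% of the summed receptor level in fresh leaves, 1.66 to 3.60% in the dried libraries and 36.8, 36.9 and 46.9% after rehydration.

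PYL8 contigs dipped at 60% RWC and rose again at 2% RWC, without water. Against fresh leaves 2 of the 6 were still called lower at 2% RWC, with log2 folds of -2.82 and -1.36. Both calls held in every alternative and with any library left out. PYL8 is another single-molecule receptor, known in Arabidopsis for its role in roots. All 6 contigs, with 2 best hits, were lower at 60% RWC than in fresh leaves and higher at 2% than at 60% RWC. Of the 6 lower calls, 5 held in every alternative and with any library left out. All 6 higher calls held in every alternative, and 4 of them with any library left out. The receptor contig at the highest level of all, Cp_V2_contig_12664, had 113, 112 and 206 RPKM in fresh leaves, 58.3, 51.8 and 55.9 at 60% RWC, 149, 121 and 141 at 2% RWC and 138, 134 and 171 after rehydration. The 60% libraries were the lowest of the 12, with no overlap (edgeR log2 fold -1.28, SE 0.25, adjusted p = 0.00197), and its level at 2% RWC was not called different from fresh leaves (log2 fold 0.14, SE 0.24, adjusted p = 0.631). Larger swings were seen for Cp_V2_contig_22050, with 27.1, 70.3 and 58.2 RPKM in fresh leaves, 1.67, 1.95 and 2.23 at 60% RWC, 15.8, 12.95 and 22 at 2% RWC and 75.8, 65.4 and 85.5 after rehydration. Its log2 fold was -4.59 at 60% RWC (SE 0.34, adjusted p = 2.40e-06) and 3.23 from 60% to 2% (SE 0.33, adjusted p = 2.68e-05), and it stayed under fresh leaves at 2% RWC (edgeR log2 fold -1.36, SE 0.29, adjusted p = 0.00177). Cp_V2_contig_41193 followed the same course at a lower level, and its rise from 60% to 2% RWC (edgeR log2 fold 2.45, SE 0.86, adjusted p = 0.0366) was lost without replicate 3 at 2% RWC and without replicate 1 or 2 at 60%. For Cp_V2_contig_20149 the drop at 60% RWC rested on fresh replicate 3: its fold went from -1.21 to -0.46 without that library and was no longer called.

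Among the 4 PYL2 contigs, 3 dipped at 60% RWC and 1 rose. PYL2 is in Arabidopsis a receptor that forms pairs when no ABA is bound. Cp_V2_contig_40600 had 4.07, 8.57 and 3.91 RPKM in fresh leaves, 0.54, 0 and 0.389 at 60% RWC, 15.2, 11.03 and 15 at 2% RWC and 12.8, 32.6 and 58.8 after rehydration, and Cp_V2_contig_33642 and Cp_V2_contig_44867 took a like course. Their log2 folds at 60% RWC were -3.88, -3.02 and -2.92, and from 60% to 2% RWC they were 5.44, 3.38 and 4.71. The rises to 2% RWC held in all alternatives, whereas the drops of Cp_V2_contig_40600 and Cp_V2_contig_44867 were lost in a voom fit with weights by state. Against fresh leaves, Cp_V2_contig_40600 and Cp_V2_contig_44867 were higher at 2% RWC (log2 fold 1.56 and 1.79), calls that were lost in the voom fit as well, the first also with single fresh or 2% libraries left out. Cp_V2_contig_38273, the longest PYL2 contig, went the other way with 3.81, 4.35 and 5.94 RPKM in fresh leaves, 8.29, 7.71 and 11.5 at 60% RWC, 4.97, 4.24 and 3.34 at 2% RWC and 5.48, 5.26 and 3.42 after rehydration. Its 60% libraries were the highest of the 12 (edgeR log2 fold 1.07, SE 0.27, adjusted p = 0.00854), a call kept in every alternative.

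The 3 PYL9 contigs parted at 2% RWC. PYL9 is known in Arabidopsis for its part in leaf ageing under drought. Cp_V2_contig_13497 and Cp_V2_contig_5297, which the Arabidopsis column calls PYR1-like 10, were highest there, and Cp_V2_contig_23902, which that column calls regulatory component of ABA receptor 1, was lowest there. Cp_V2_contig_13497 had 5.07, 23.2 and 6.47 RPKM in fresh leaves, 4.69, 4.55 and 5.52 at 60% RWC, 68.7, 64.3 and 70.6 at 2% RWC and 30.2, 35.1 and 45.96 after rehydration. The 2% libraries lay above all others and the 60% libraries were at most 5.52 RPKM. Its level at 2% RWC was above fresh leaves (edgeR log2 fold 2.84, SE 0.43, adjusted p = 0.000169), and without fresh replicate 2, the highest of the fresh libraries, the log2 fold was 3.70. Cp_V2_contig_5297 had 4.74, 16.2 and 8.803 RPKM in fresh leaves, 4.02, 5.53 and 4.705 at 60% RWC, 43.7, 43.6 and 48.4 at 2% RWC and 16.4, 23.1 and 21.1 after rehydration (edgeR log2 fold 2.47, SE 0.31, adjusted p = 4.81e-05 for 2% RWC against fresh leaves), and on rehydration it fell (log2 fold -1.56, SE 0.30, adjusted p = 0.00107). Cp_V2_contig_23902 had 8.03, 24.5 and 16.1 RPKM in fresh leaves, 21.5, 21.8 and 19.9 at 60% RWC, 3.84, 4.47 and 4.71 at 2% RWC and 18.7, 20.3 and 15.1 after rehydration. It was not called at 60% RWC, and its 2% libraries were the lowest of the 12 (edgeR log2 fold -1.63, SE 0.29, adjusted p = 0.000496 against fresh leaves). The PYL9 fall and both rises at 2% RWC held in every alternative and with any library left out. PYR1 is the receptor that gave the family its name. Of its 2 contigs, Cp_V2_contig_22814 had 57.2, 106 and 56.3 RPKM in fresh leaves, 22.6, 25.1 and 22.97 at 60% RWC, 15.4, 16.6 and 13.3 at 2% RWC and 54.2, 51.9 and 64.04 after rehydration. It was lower in both dried states (edgeR log2 fold -1.498, SE 0.21, adjusted p = 0.000261 at 60% and log2 fold -2.02, SE 0.22, adjusted p = 1.40e-05 at 2% RWC). The other, Cp_V2_contig_6320, was called in none of the 5 comparisons, with fresh libraries from 18.4 to 72.3 RPKM.

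Taken as 1 class, the PP2C contigs were called in total about as often as all contigs, except that more were higher at 60% RWC. At 60% RWC 57 of the 184 tested contigs were higher and 32 lower than in fresh leaves, that is 31.0% and 17.4% against 15.6% and 23.3% of all tested contigs. At 2% RWC 53 were higher and 56 lower, 28.8% and 30.4% against 26.0% and 34.9%. From 60% to 2% RWC 22 were higher and 60 lower, 11.96% and 32.6% against 19.5% and 25.0%. This higher count depended on the fit, with 46 higher and 74 lower with only the 6 libraries and 39 and 75 with voom. Rehydration against 2% RWC raised 42 and lowered 54, 22.8% and 29.3% against 31.1% and 25.4%. With only the 6 libraries the calls at 60% RWC were 40 higher and 21 lower. At 60% RWC the 59 tested contigs of the 6 numbered groups had 42 higher calls and no lower one. Not all contigs numbered 51 are sure to be of clade A, as told below. Among the 37 numbered 16, 24, 37 or 77 alone there were 25 higher and no lower. The other 125 tested PP2C contigs had 15 higher and 32 lower calls. The mean level peaked at 60% RWC in 45 of the 59 contigs (76.3%, against 17.5% of all tested contigs). Of the 42 calls, 32 held under every alternative and with any library left out. The numbers come from the descriptions of the best hits: in Arabidopsis 16 is HAB1, 24 is HAI3, 37 is PP2CA and 77 is ABI2, all of clade A, while 50, 51 and 53 are rice numbers of that clade and 51 is in Arabidopsis a phosphatase outside it. In the Arabidopsis column of the annotation, 14 of the 20 contigs numbered 16, 11 of the 14 numbered 50 or 53, 1 of the 15 numbered 37 and the 1 numbered 77 are called HYPERSENSITIVE TO ABA1, and none of the other PP2C contigs is. Joining 50 with 53, and looking at 50, 51 and 53 at all, was decided after values had been seen.

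**Figure D3:**
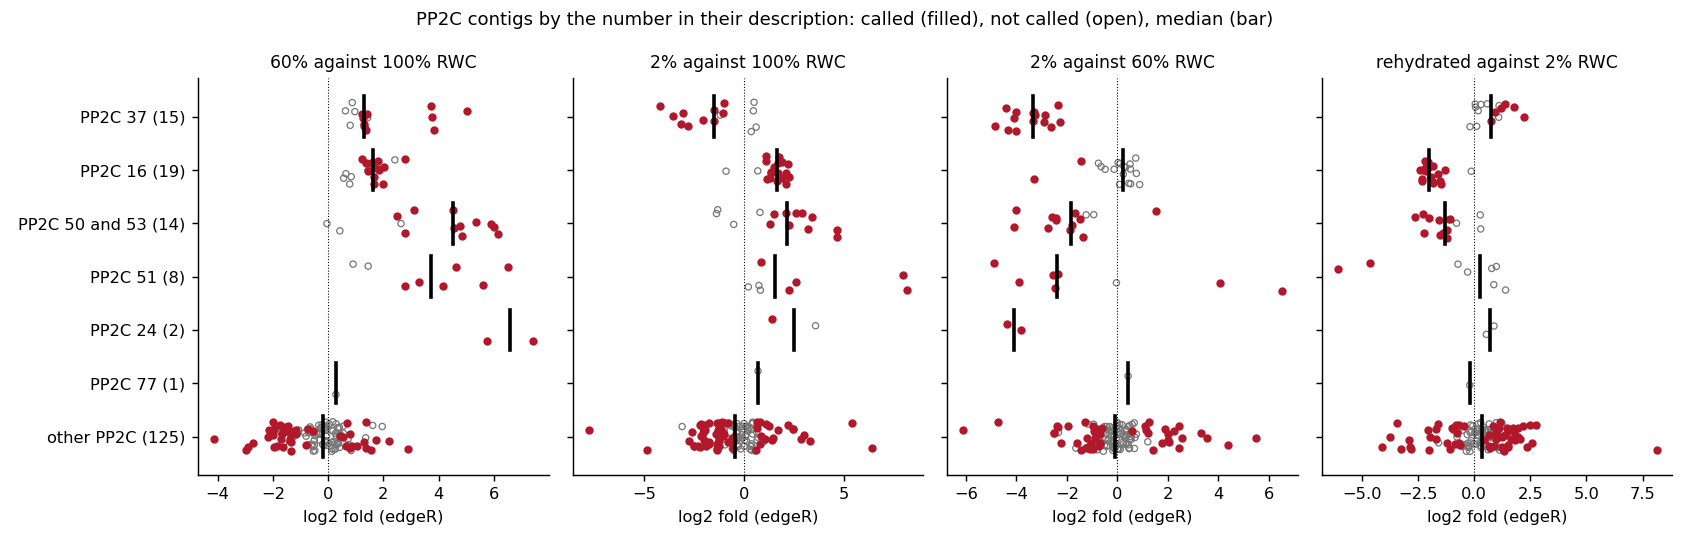
Fitted edgeR log2 fold (x axis) of each tested PP2C contig in 4 comparisons (panels), by the number in the description (y axis), with called contigs filled, others open and the median as a bar. At 60% RWC against fresh leaves the medians are 1.29 for PP2C 37, 1.63 for PP2C 16, 4.53 for PP2C 50 and 53 and 3.71 for PP2C 51, and from 60% to 2% RWC the PP2C 37 median is -3.35 while that of PP2C 16 is 0.24.

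PP2C 37 contigs formed a pulse at 60% RWC. PP2CA, its Arabidopsis namesake, binds SnRK2 kinases and anion channels and acts in seeds and guard cells. All 15 contigs, with 7 best hits, had their highest mean at 60% RWC. Of these, 10 were called higher there than in fresh leaves and 10 lower at 2% RWC than in fresh leaves. From 60% to 2% RWC all 15 fell, with a median log2 fold of -3.35, and all 15 calls held in every alternative and with any library left out. Cp_V2_contig_8005, the one at the highest level, had 133, 57.3 and 129.6 RPKM in fresh leaves, 295, 232 and 276 at 60% RWC, 39.8, 31.3 and 30.9 at 2% RWC and 71.03, 74.3 and 54.98 after rehydration. The 60% libraries were the highest of the 12 and the 2% libraries the lowest (edgeR log2 fold 1.39, SE 0.32, adjusted p = 0.00522 at 60% RWC and log2 fold -2.87, SE 0.33, adjusted p = 6.75e-05 from 60% to 2%). Cp_V2_contig_39202 had the largest rise of the group, with 3.23, 3.32 and 4.21 RPKM in fresh leaves, 126, 108 and 93.1 at 60% RWC, 3.95, 5.13 and 5.06 at 2% RWC and 16.6, 12.2 and 6.86 after rehydration (edgeR log2 fold 5.02, SE 0.34, adjusted p = 1.18e-06). Its libraries at 60% RWC were at least 93.1 RPKM and no other library was over 16.6. Cp_V2_contig_613 rose as well (edgeR log2 fold 1.39, SE 0.25, adjusted p = 0.00117) and was lower at 2% RWC than in fresh leaves (log2 fold -1.51, SE 0.25, adjusted p = 0.000348). Of the 10 rises at 60% RWC, 6 were kept when only the 6 libraries of the compared states were fitted, and Cp_V2_contig_3691, Cp_V2_contig_10397, Cp_V2_contig_3692 and Cp_V2_contig_6161 were the 4 that were lost. For Cp_V2_contig_5848 and Cp_V2_contig_21748, fresh replicate 1 was as high as the 60% libraries, and neither was called at 60% RWC (log2 fold 0.63 and 0.97). Their drops under fresh leaves at 2% RWC, -4.22 and -3.05, were -3.18 and -1.98 without that library.

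PP2C 16 contigs rose at 60% RWC and stayed up in the dry leaf. HAB1, its namesake, is a main partner of the receptors in Arabidopsis. The 20 contigs of this number had 10 best hits. Of the 19 tested contigs 13 were higher at 60% RWC and 17 at 2% RWC than in fresh leaves, none was lower, and 18 fell on rehydration. Between 60% and 2% RWC, 2 were lower and none was higher. Cp_V2_contig_17963 had 45.6, 15.3 and 22.1 RPKM in fresh leaves, 82.2, 81.1 and 70.2 at 60% RWC, 135, 110.1 and 113 at 2% RWC and 29.6, 34.96 and 22.7 after rehydration. Both dried states lay above all fresh and rehydrated libraries, and the level at 2% RWC was the highest (edgeR log2 fold 2.27, SE 0.38, adjusted p = 0.000395 against fresh leaves and log2 fold -2.43, SE 0.39, adjusted p = 0.000281 on rehydration). Without fresh replicate 1, its log2 fold at 2% RWC was 2.95. Cp_V2_contig_22202 had 20.1, 9.54 and 17.7 RPKM in fresh leaves, 50.04, 54.9 and 52.9 at 60% RWC, 52.04, 49.4 and 53.5 at 2% RWC and 17.4, 15.3 and 13.8 after rehydration, close to equal in both dried states (edgeR log2 fold 1.81, SE 0.28, adjusted p = 0.000502 at 60% and log2 fold 1.89, SE 0.28, adjusted p = 0.000152 at 2% RWC), and these calls held in every alternative. The longest of the group, Cp_V2_contig_3389 of 2196 bases, rose from 12.3 ± 6.89 to 48.1 ± 2.598 RPKM at 60% RWC and was at 31.8 ± 1.92 at 2% (SD, n = 3). With only the 6 libraries of the compared states, 8 of the 13 calls at 60% RWC and 11 of the 17 at 2% RWC were kept, while 16 of the 18 falls on rehydration held in every alternative and left-out library. Cp_V2_contig_12927 stood apart, with 41.97, 1.79 and 0.185 RPKM in fresh leaves, 70.4, 99.9 and 68.4 at 60% RWC, 8.75, 7.86 and 5.56 at 2% RWC and 7.04, 13.6 and 6.19 after rehydration. Its fresh libraries ranged from 0.185 to 41.97 RPKM, and it was not called at 60% RWC (edgeR log2 fold 2.42, SE 1.08, adjusted p = 0.1). Cp_V2_contig_44286 was not tested, with 3 reads in fresh leaves, 40 at 60% RWC, 8 at 2% and 9 after rehydration.

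PP2C 50 and 53 contigs had larger rises at 60% RWC and fell again before the leaf was dry. The 14 contigs had only 4 best hits. The 11 numbered 50 were higher at 60% RWC with log2 folds from 2.49 to 6.16. Of the 14, 10 were above fresh leaves at 2% RWC, and 11 were lower at 2% than at 60%. Cp_V2_contig_15492, of 1602 bases, had 2.12, 1.48 and 1.82 RPKM in fresh leaves, 118, 108 and 99.5 at 60% RWC, 13.8, 15.4 and 15.03 at 2% RWC and 10.9, 8.98 and 5.098 after rehydration. The 60% libraries reached 99.5 to 118 RPKM, apart from all others (edgeR log2 fold 5.99, SE 0.33, adjusted p = 2.73e-07), and at 2% RWC it was still above fresh leaves (log2 fold 3.23, SE 0.29, adjusted p = 4.36e-06). Cp_V2_contig_33132 rose from 0.406 ± 0.247 to 28.3 ± 5.24 RPKM (edgeR log2 fold 6.16, SE 0.36, adjusted p = 4.56e-07), or by 6.79 on the log2 scale without fresh replicate 1. Of the 11 rises 10 held in every alternative and left-out library. The 3 contigs numbered 53 were not called at 60% RWC. Of the 14 contigs numbered 50 or 53, 13 had their highest mean there, and Cp_V2_contig_24021 was the exception. Cp_V2_contig_24021 had 9.68, 12.8 and 23.2 RPKM in fresh leaves, 14.7, 11.8 and 14.7 at 60% RWC, 36.7, 31.3 and 42.6 at 2% RWC and 22.7, 23.7 and 22.4 after rehydration, highest at 2% RWC (edgeR log2 fold 1.499, SE 0.28, adjusted p = 0.000669), the reverse of the PP2C 50 contigs from 60% to 2% (log2 fold 1.54, SE 0.28, adjusted p = 0.00101). Cp_V2_contig_24634 had 20.9, 1.02 and 0 RPKM in the fresh libraries, and its level at 60% RWC, 39.1, 61.5 and 38.5, did not pass the threshold (edgeR log2 fold 2.64, SE 1.07, adjusted p = 0.0712).

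PP2C 51 contigs split into 2 courses. In the first, a rise at 60% RWC was followed by a fall, as in Cp_V2_contig_14113, with 3.46, 0.249 and 0.356 RPKM in fresh leaves, 82.2, 51.7 and 67.4 at 60% RWC, 1.797, 2.18 and 2.35 at 2% RWC and 8.98, 7.17 and 5.79 after rehydration. All 60% libraries were at least 51.7 RPKM and no other was over 8.98 (edgeR log2 fold 5.62, SE 0.79, adjusted p = 0.000254), and without fresh replicate 1 the log2 fold was 7.95. Cp_V2_contig_28979 rose by 6.52 on the log2 scale (SE 0.58), by 8.18 without fresh replicate 1, and Cp_V2_contig_5209, Cp_V2_contig_47269 and Cp_V2_contig_47532 by 4.64, 3.28 and 2.79. In the second course, seen in 2 contigs, the level rose from 60% to 2% RWC. Cp_V2_contig_39930 had 6.68, 0.719 and 0.615 RPKM in fresh leaves, 10.3, 6.64 and 4.998 at 60% RWC, 642, 585 and 636 at 2% RWC and 7.93, 10.8 and 17.3 after rehydration. Its 2% libraries stood far above all others, and on rehydration it fell (edgeR log2 fold -6.08, SE 0.88, adjusted p = 0.000149). At 2% RWC this contig alone made up 16.4, 15.97 and 17.7% of the summed level of all 188 PP2C contigs, against at most 0.578% in any library of another state. The rise over fresh leaves, a log2 fold of 7.97, was 10.15 without fresh replicate 1. Cp_V2_contig_43966 had reads in 1 of the 3 fresh libraries, with 0.684, 0 and 0 RPKM in fresh leaves, 4.99, 3.65 and 3.88 at 60% RWC, 62.98, 75.2 and 53.2 at 2% RWC and 2.98, 3.43 and 3.65 after rehydration (edgeR log2 fold 4.05, SE 0.57, adjusted p = 0.000239 from 60% to 2% RWC). All 6 rises at 60% RWC of the group held in every alternative and left-out library. Of this group Cp_V2_contig_47269, Cp_V2_contig_47532 and Cp_V2_contig_31269 are called kinase superfamily proteins in the Arabidopsis column, so their place in clade A is uncertain, and 2 of the 42 higher calls at 60% RWC are theirs. Cp_V2_contig_31269 was the only one of the 8 that stayed between 2.29 and 8.65 RPKM in all libraries. Its difference between 2% RWC and fresh leaves was small (edgeR log2 fold 0.87, SE 0.35, adjusted p = 0.0481), and the call was lost with unique reads, in the 6-library and voom fits and with most libraries left out.

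**Figure D4:**
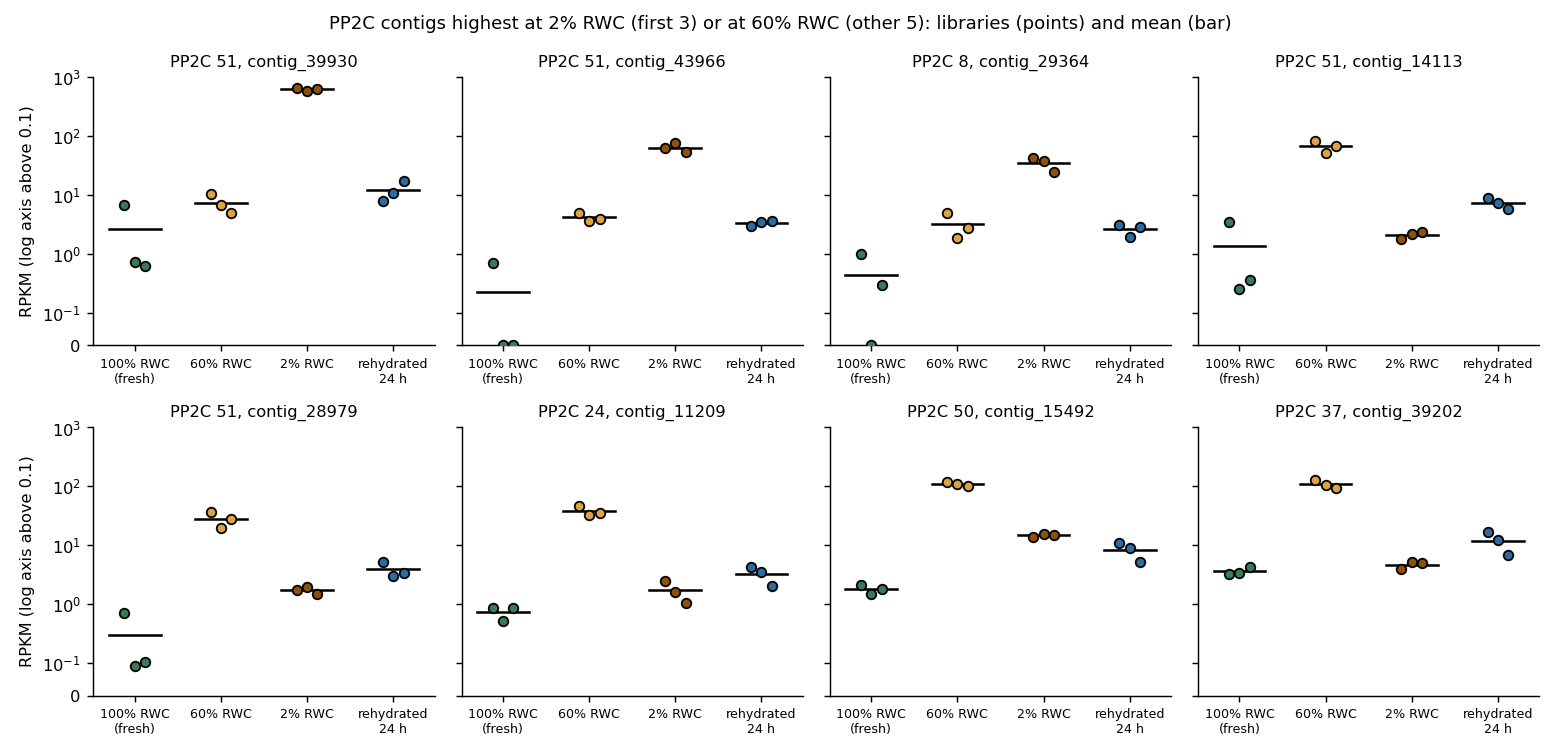
RPKM (y axis, logarithmic above 0.1 and linear under it) of 8 PP2C contigs (panels), chosen after their values were seen, in each library (points) with the mean of each state (bar). Cp_V2_contig_39930, Cp_V2_contig_43966 and Cp_V2_contig_29364 are highest in all 3 libraries at 2% RWC, and the other 5, numbered 51, 24, 50 and 37, are highest in all 3 libraries at 60% RWC.

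The 2 contigs numbered 24 peaked at 60% RWC and the 1 numbered 77 was not called in any comparison. HAI3, the namesake of 24, is induced by ABA and drought in Arabidopsis. Cp_V2_contig_11209 had 0.843, 0.5102 and 0.874 RPKM in fresh leaves, 46.6, 32.9 and 34.96 at 60% RWC, 2.47, 1.62 and 1.05 at 2% RWC and 4.28, 3.54 and 1.995 after rehydration. Its 60% libraries were at least 32.9 RPKM and no other was over 4.28 (edgeR log2 fold 5.76, SE 0.42, adjusted p = 1.95e-06 and log2 fold -4.36, SE 0.38, adjusted p = 1.11e-05 for 2% against 60% RWC). Cp_V2_contig_48011 had no read in fresh leaves and 59 at 60% RWC, at least 6.91-fold higher, and 13.9% of its reads also match other contigs. Cp_V2_contig_40537, described as PP2C 77-like, had 1.605, 2.201 and 0.838 RPKM in fresh leaves, 1.73, 2.23 and 1.31 at 60% RWC, 3.24, 2.04 and 1.26 at 2% RWC and 1.81, 3.58 and 2.15 after rehydration, with overlap between the states in each of the 5 comparisons.

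The other 125 tested PP2C contigs, with numbers or names outside these groups, were called in shares close to or under those of all contigs. There were 15 higher and 32 lower calls at 60% RWC (12% and 25.6%, against 15.6% and 23.3% of all contigs) and 20 and 46 at 2% RWC (16% and 36.8%, against 26.0% and 34.9%). On rehydration there were 36 and 24 (28.8% and 19.2%, against 31.1% and 25.4%). The highest mean was after rehydration in 51 (40.8%, against 31.8% of all contigs). The ones named next were taken at the highest level or with the largest folds. At the highest level was Cp_V2_contig_16614, PP2C 39, with 66.2, 2.92 and 136 RPKM in fresh leaves, 298, 241 and 234 at 60% RWC, 47.4, 54.8 and 39.8 at 2% RWC and 54.6, 34.8 and 20.4 after rehydration. Its fresh libraries ranged from 2.92 to 136 RPKM, and the rise to 60% RWC did not pass the threshold (edgeR log2 fold 1.96, SE 0.87, adjusted p = 0.098). Cp_V2_contig_3199, PP2C 34, was high in both dried states with 104, 89.5 and 60.9 RPKM in fresh leaves, 141, 134 and 143 at 60% RWC, 132, 132 and 124 at 2% RWC and 52.1, 59.4 and 44.7 after rehydration (edgeR log2 fold 0.81, SE 0.21, adjusted p = 0.0057 at 2% RWC and log2 fold -1.70, SE 0.21, adjusted p = 4.97e-05 on rehydration). Cp_V2_contig_29364, PP2C 8, peaked at 2% RWC with 0.999, 0 and 0.293 RPKM in fresh leaves, 4.86, 1.84 and 2.76 at 60% RWC, 41.8, 37.3 and 24.9 at 2% RWC and 3.04, 1.95 and 2.89 after rehydration (edgeR log2 fold 3.56, SE 0.55, adjusted p = 0.000409 from 60% to 2%). Cp_V2_contig_3269, PP2C 35, had 41.9, 4.21 and 38.1 RPKM in fresh leaves, 1.598, 2.02 and 1.07 at 60% RWC, 0.935, 0.399 and 1.36 at 2% RWC and 8.03, 5.21 and 7.37 after rehydration and fell in both dried states (log2 fold -4.13 at 60% and -4.85 at 2% RWC). Cp_V2_contig_2126, PP2C 33, fell step by step with 53.9, 42.1 and 34.5 RPKM in fresh leaves, 21.5, 13.4 and 12.04 at 60% RWC, 6.13, 6.38 and 6.32 at 2% RWC and 24.1, 18.7 and 26.8 after rehydration (edgeR log2 fold -2.59, SE 0.29, adjusted p = 1.74e-05 at 2% RWC). Cp_V2_contig_31206, PP2C 12, fell in both dried states and rose on rehydration (edgeR log2 fold 2.76, SE 0.34, adjusted p = 4.33e-05). Cp_V2_contig_10032 and Cp_V2_contig_7178, PP2C 23 and PP2C 4, were lowest at 60% RWC, with log2 folds of -2.99 and -2.89 against fresh leaves, and higher at 2% than at 60% RWC. Cp_V2_contig_36004, PP2C 72, picked after its values were seen, was without reads at 2% RWC, at least 8.44-fold under fresh leaves, and was at least 10.6-fold higher after rehydration.

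Further numbers were picked after their values were seen. PP2C 5 had 3 contigs, all lower at 60% and at 2% RWC and all higher on rehydration, among them Cp_V2_contig_15460 with 19.2, 15.2 and 16.05 RPKM in fresh leaves, 5.66, 4.74 and 4.09 at 60% RWC, 3.64, 3.93 and 2.91 at 2% RWC and 18.2, 14.1 and 20.7 after rehydration. PP2C 57 had 4 contigs, and this number belongs in Arabidopsis to the phosphatase that removes phosphate from the light-harvesting antenna of the chloroplast. Of these, 3 were lower in both dried states, as Cp_V2_contig_3231 with 110.4, 62.7 and 207 RPKM in fresh leaves, 28.3, 27.1 and 35.2 at 60% RWC, 20.9, 20.6 and 31.4 at 2% RWC and 132, 111 and 94.7 after rehydration, while Cp_V2_contig_11615 was higher at 2% RWC (edgeR log2 fold 1.39, SE 0.21, adjusted p = 0.000147). The leaf marker sums given above moved the same way as the 3, and their part was not tested. PP2C 60 had 6 contigs, of which Cp_V2_contig_15088 rose with 10.3, 16.99 and 11.6 RPKM in fresh leaves, 58.02, 51.03 and 53.98 at 60% RWC, 37.6, 38.1 and 31.8 at 2% RWC and 13.9, 11.8 and 9.13 after rehydration (edgeR log2 fold 2.19, SE 0.19, adjusted p = 8.39e-06 at 60% RWC), while the other 5 were not called in any comparison. PP2C 33, with 11 contigs the most frequent number outside the 6 groups, had 5 higher and 5 lower calls at 60% RWC. Each is 45.45% of its contigs, against 15.6% higher and 23.3% lower among all contigs.

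SnRK2 contigs were mostly highest at 60% RWC and lowest at 2% RWC. Of 13 tested contigs, 4 were higher and 1 was lower at 60% RWC than in fresh leaves (15.6% and 23.3% of all contigs), and 1 was higher and 5 lower at 2% RWC. The last share, 38.5%, is near the 34.9% of all contigs that were lower. From 60% to 2% RWC 8 were lower and none was higher (61.5% lower, against 25.0% of all contigs), with all 8 calls kept in every alternative and with any library left out. Rehydration against 2% RWC gave 1 higher and 3 lower calls (31.1% and 25.4% of all contigs), and 4 higher and 3 lower without fresh replicate 2. The median log2 folds in these 4 comparisons were 0.34, -0.40, -1.41 and -0.02. The mean level was highest at 60% RWC in 8 of the 13 (61.5%, against 17.5% of all contigs) and lowest at 2% RWC in 9 (69.2%, against 45.6%). The contigs fell into 3 types: SRK2A and SRK2B, which in Arabidopsis answer to osmotic stress rather than to ABA itself, SRK2E and SRK2I, which ABA activates, and SAPK2, a name of rice.

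**Figure D5:**
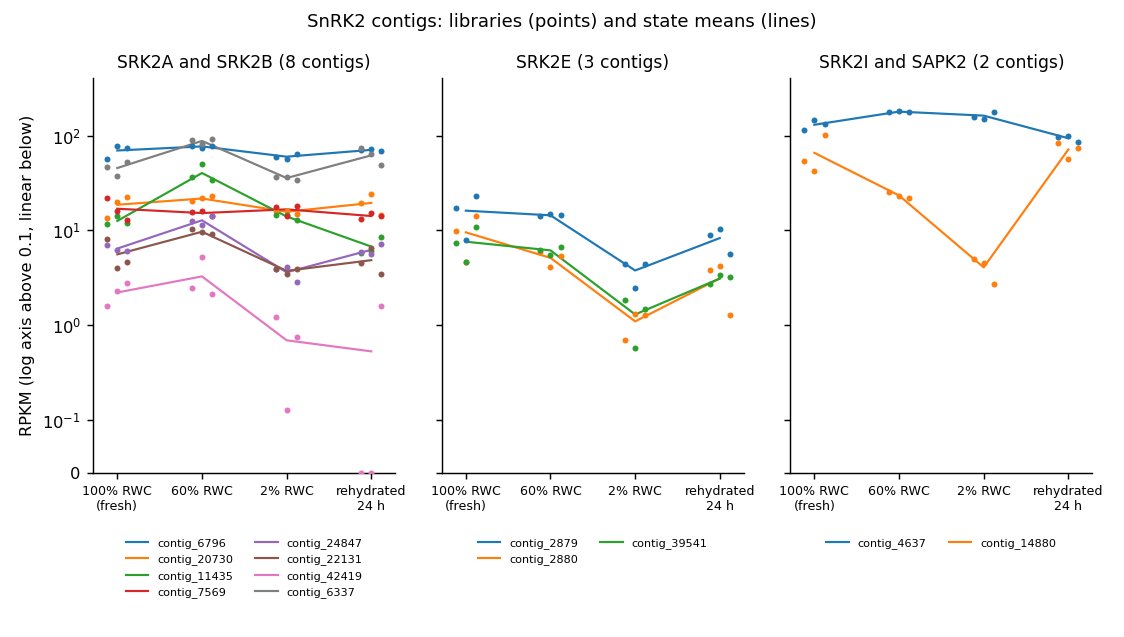
RPKM of the 13 tested SnRK2 contigs (y axis, logarithmic above 0.1) in each library (points) and as state means (lines), in panels by the kinase named in the description, SRK2I and SAPK2 in one panel. SRK2I contig Cp_V2_contig_4637 stays between 85.0 and 180.4 RPKM, the SRK2E contigs are lowest at 2% RWC, and SAPK2 contig Cp_V2_contig_14880 falls from 41.8 to 101 RPKM in fresh leaves to 2.69 to 5.02 at 2% RWC.

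SRK2I had the highest level of the class and moved within a narrow range. Its Arabidopsis counterpart is one of the 3 kinases on which most ABA responses rest. Cp_V2_contig_4637 had 113, 144 and 132 RPKM in fresh leaves, 179, 180.4 and 177 at 60% RWC, 159, 151 and 177 at 2% RWC and 97.1, 98.8 and 85 after rehydration. The 60% libraries were the highest of the 12 and the rehydrated ones the lowest, with no overlap between states before rounding. The rise at 60% RWC (edgeR log2 fold 0.57, SE 0.14, adjusted p = 0.00778) and that at 2% RWC (log2 fold 0.55, SE 0.14, adjusted p = 0.00544) were called in the fit of all libraries and lost when only the 6 libraries of the compared states were used. The fall on rehydration (edgeR log2 fold -1.18, SE 0.14, adjusted p = 3.49e-05) held in every alternative.

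SRK2E, in Arabidopsis the guard cell kinase OST1 that drives stomatal closure, was low and fell further in the dry leaf. Cp_V2_contig_2879 had 17.1, 7.96 and 23.3 RPKM in fresh leaves, 13.99, 14.8 and 14.4 at 60% RWC, 4.42, 2.44 and 4.47 at 2% RWC and 8.96, 10.3 and 5.601 after rehydration. The 2% libraries were the lowest of the 12 (edgeR log2 fold -1.92, SE 0.42, adjusted p = 0.00199 against fresh leaves and log2 fold -1.83, SE 0.42, adjusted p = 0.00432 against 60% RWC). Cp_V2_contig_2880 and Cp_V2_contig_39541 also fell at 2% RWC, with log2 folds of -2.90 and -2.37 against fresh leaves, and all 6 calls of the 3 contigs at 2% RWC held in every alternative. None of the 3 was called at 60% RWC. Of the reads of Cp_V2_contig_39541 36.5% match other contigs too, so its level is uncertain, and Cp_V2_contig_24101, with 68 reads in all 12 libraries and 60.3% of them shared, was not tested. The guard cell markers summed to 9.6 to 11.8 RPKM at 2% RWC against 20.9 to 46.0 in fresh leaves, and their part in the fall was not tested.

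Among the SRK2A and SRK2B contigs, 3 of 8 rose at 60% RWC and 4 fell from 60% to 2%. Cp_V2_contig_11435, SRK2A, had 11.7, 14.04 and 11.96 RPKM in fresh leaves, 36.2, 50.1 and 34.4 at 60% RWC, 14.5, 14.6 and 12.9 at 2% RWC and 5.81, 5.98 and 8.43 after rehydration. Its 60% libraries were at least 34.4 RPKM and no other was over 14.6 (edgeR log2 fold 1.79, SE 0.21, adjusted p = 6.24e-05 and log2 fold -1.41, SE 0.21, adjusted p = 0.000279 for 2% against 60% RWC), and it fell further on rehydration (log2 fold -1.44, SE 0.21, adjusted p = 0.000136). Cp_V2_contig_6337, SRK2B, had 46.1, 36.97 and 53.2 RPKM in fresh leaves, 89.8, 82.03 and 91.4 at 60% RWC, 36.8, 36.2 and 33.8 at 2% RWC and 73.2, 63.2 and 48.95 after rehydration (edgeR log2 fold 1.04, SE 0.21, adjusted p = 0.00234 at 60% and log2 fold -1.18, SE 0.21, adjusted p = 0.00087 from 60% to 2% RWC). Cp_V2_contig_24847 rose at 60% RWC as well (edgeR log2 fold 1.08, SE 0.22, adjusted p = 0.00274), and these 3 rises held in every alternative. Cp_V2_contig_22131 was lower at 2% than at 60% RWC (edgeR log2 fold -1.25, SE 0.33, adjusted p = 0.00926). The SRK2A contig at the highest level, Cp_V2_contig_6796, was called in no comparison, with 56.99, 77.3 and 74.2 RPKM in fresh leaves, 78.3, 74.7 and 77.3 at 60% RWC, 58.97, 56.2 and 64.2 at 2% RWC and 71.1, 71.8 and 68.95 after rehydration. Cp_V2_contig_20730 and Cp_V2_contig_42419 were not called in any of the 5 either, and Cp_V2_contig_7569 was called on rehydration alone, where its fold of -0.62 came with overlap between the libraries of both states.

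SAPK2 had the largest change of the class. In rice the SAPK kinases are activated by hyperosmotic stress. Cp_V2_contig_14880 had 54.1, 41.8 and 101 RPKM in fresh leaves, 25.1, 23.1 and 21.8 at 60% RWC, 5.02, 4.49 and 2.69 at 2% RWC and 82.7, 57.04 and 74.01 after rehydration. It fell in 2 steps without overlap, at 60% RWC (edgeR log2 fold -1.41, SE 0.34, adjusted p = 0.00669) and again to 2% (log2 fold -2.40, SE 0.35, adjusted p = 0.000299), and rose back on rehydration (log2 fold 3.74, SE 0.37, adjusted p = 9.34e-06). It was the 1 SnRK2 contig lower at 60% RWC and the 1 higher on rehydration, and these calls held in every alternative and with any library left out.

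After 24 h under water, receptors and SnRK2 contigs were called against fresh leaves in larger shares than all contigs. PP2C were called about as often as all contigs, and the calls depended on the fit. Among all tested contigs 9.41% were called, 3.71% higher and 5.69% lower. Receptors had 7 higher and 0 lower calls (29.17% called), PP2C 11 and 7 (9.78%), and SnRK2 0 and 4 (30.77%). None of these calls held under every alternative: with only the 6 libraries of both states edgeR called 0 receptors, 0 PP2C and 0 SnRK2 contigs, where 11, 33 and 5 had an unadjusted p below 0.05, and voom with weights by state called 1, 4 and 0 and DESeq2 39 PP2C. With fresh replicate 2 left out, 13 receptors and 62 PP2C contigs were called, whereas leaving out any other library gave 2 to 4 receptors. The PP2C count was 28 without fresh replicate 1 and 9 without rehydrated replicate 1 or 2, and the SnRK2 count was 2 or 3 without most libraries, 5 without fresh replicate 2 and 0 without rehydrated replicate 2. The 7 receptors were 3 each of PYL4 and PYL2 and 1 of PYL9, for instance Cp_V2_contig_40600 with 5.52 ± 2.64 RPKM in fresh and 34.8 ± 23.1 in rehydrated leaves (SD, n = 3). Rehydrated replicate 3 was the highest of its state in all 7.

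Genes on either side of the 3 classes were taken from lists of words in the descriptions. Of 40 tested contigs of ABA synthesis, 8 were higher and 2 lower at 60% RWC than in fresh leaves and 10 and 7 at 2%. The higher shares of 20% and 25% were near the 15.6% and 26.0% of all contigs, and the lower shares were 5% and 17.5%, against 23.3% and 34.9%. Among them Cp_V2_contig_47487, a 9-cis-epoxycarotenoid dioxygenase, the enzyme whose cut of a carotenoid limits ABA synthesis, rose at 60% RWC from 0.462 ± 0.6297 to 3.72 ± 0.732 RPKM (edgeR log2 fold 3.14, SE 0.78, adjusted p = 0.00848) and was at 0.365 ± 0.254 at 2% RWC. Of 14 contigs of ABA breakdown and storage, 4 were higher and 3 lower at 60% RWC (28.6% and 21.4%, against 15.6% and 23.3% of all contigs). All 14 were called at 2% RWC, 5 higher and 9 lower, where 60.9% of all contigs were called. Cp_V2_contig_47852 and Cp_V2_contig_9059, both described as the 8'-hydroxylase that breaks ABA down, went opposite ways at 2% RWC, with 0.107 ± 0.0667, 1.45 ± 0.389, 10.1 ± 0.8804 and 0.403 ± 0.183 RPKM for the first and 17.8 ± 13.6, 25.9 ± 2.96, 0.911 ± 0.277 and 27.9 ± 12.7 for the second in the order of the states (edgeR log2 fold 6.70, SE 0.41, adjusted p = 3.74e-07 and log2 fold -4.08, SE 0.71, adjusted p = 0.000478).

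Downstream, 15 of 28 tested contigs named as bZIP factors or ABA-insensitive proteins were higher at 60% RWC and 5 lower (53.6% and 17.9%, against 15.6% and 23.3% of all contigs), and 18 were lower and 1 higher from 60% to 2% (64.3% lower, against 25.0%). Cp_V2_contig_42134, ABSCISIC ACID-INSENSITIVE 5-like protein 5, had 0.622 ± 0.169, 115 ± 10.5, 5.73 ± 1.45 and 17.6 ± 5.87 RPKM in the order of the states (edgeR log2 fold 7.63, SE 0.35, adjusted p = 9.76e-08 at 60% RWC), higher at 60% than at 2% RWC as in PP2C 37 and 50. A list of membrane proteins took 25 tested contigs described as S-type anion channels, KAT potassium channels or respiratory burst oxidases. These words do not single out guard cells, and the guard cell markers share some of them. Of the 25, 4 were higher and 10 lower at 60% RWC, 4 and 15 at 2%, and 16 and 3 on rehydration. The lower shares in the dried states were 40% and 60%, against 23.3% and 34.9% of all contigs, of which 15.6% and 26.0% were higher. On rehydration 31.1% of all contigs were higher and 25.4% lower. The S-type anion channel Cp_V2_contig_46350, SLAH2-like, rose from 0.574 ± 0.579 to 23.4 ± 3.904 RPKM at 60% RWC, while the potassium channel Cp_V2_contig_6785, KAT3-like, had 35.2 ± 17.5, 11.7 ± 1.31, 0.556 ± 0.113 and 22.1 ± 4.18. Among 10 receptor partners Cp_V2_contig_47827, a C2-DOMAIN ABA-RELATED 4-like protein of the kind that brings receptors to membranes in Arabidopsis, had 0.418 ± 0.242, 58.5 ± 10.6, 212 ± 19.03 and 19.9 ± 2.098 RPKM (edgeR log2 fold 9.17, SE 0.32, adjusted p = 1.69e-08 at 2% RWC).

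Neighbouring families without a known place in the core chain were counted the same way. SnRK3 kinases, which are steered by calcium sensors, had 19 higher and 20 lower of 65 tested contigs at 60% RWC (29.2% and 30.8%, against 15.6% and 23.3% of all contigs). From 60% to 2% RWC they had 10 higher and 34 lower (15.4% and 52.3%, against 19.5% and 25.0%). SnRK1 kinases, which answer to sugar and energy, had 0 higher and 1 lower of 10 at 60% RWC and 1 and 7 at 2% RWC against fresh leaves (70% lower, against 34.9% of all contigs). Phosphatases of types 1 and 2A had 9 higher and 7 lower of 64 at 60% RWC (14.1% and 10.9%, the higher share near that of all contigs), with a median log2 fold of 0.01. Differences between the lists were not tested.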

How the data were processed

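The source is one table of RNA sequencing of Craterostigma plantagineum leaves, 12 libraries in 4 states. Per the labels, stranded paired-end reads of 75 bases were sequenced and placed on an assembled transcriptome; which assembler and mapper were used, and with what strand setting, is not given in the sources used here. Raw counts per contig, all reads or unique reads only, and RPKM were deposited by the authors, and the RPKM values could be recomputed from the counts and contig lengths within a relative difference of 1.6e-08. The deposited p-values of the authors' own test across states were not used. The rehydrated columns were matched to the samples taken after 24 h in water by name.

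Counts of all reads were tested with edgeR 4.0.16 in R 4.3.3 (TMM factors 0.863 to 1.186, filterByExpr with a minimum count of 10 and total of 15, robust quasi-likelihood fit of all 12 libraries, 1 mean per state, two-sided). Adjustment was by Benjamini-Hochberg over 46494 contigs, with 1551 filtered out, calls were made at 0.05, and the SE is the size of the log2 fold divided by the square root of F. The code was tested on simulated data with the same spread in every library. That trial cannot tell how often calls err where the states differ in spread. Sensitivity was tried with RLE factors, no filter, DESeq2 1.42.0, unique reads, only the 6 libraries compared, limma 3.58.1 voom with weights by state, a replicate block and each library left out. Reads shared between near-identical contigs are counted in the totals, so such contigs are uncertain.

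Members and lists were chosen with earlier results of these data known. Contigs were named by level (all receptors and SnRK2, the 5 PP2C contigs at the highest level), by clade A number or number 51, and by the largest called folds of a comparison; PP2C 5, 50, 53, 57, 60 and 72, untested contigs and some examples were added after values were seen. The contigs' sequences were not analysed here.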

Additional observations from a re-analysis of the deposited data

How the results depend on the processing

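Of 105 class counts under alternatives that kept all libraries, 98 stayed within 1.5 times the reported one, and all 7 that moved were rehydrated against fresh leaves. These are totals of both directions: from 60% to 2% RWC the higher PP2C calls were 22, but 46 with only the 6 libraries and 39 with voom. For rehydrated against fresh leaves the receptor calls went from 7 to 0 with only the 6 libraries and 1 with voom. The PP2C calls went from 18 to 0, 4 and 39 (6 libraries, voom and DESeq2, the last with 19 higher and 20 lower). The SnRK2 calls went from 4 to 0 and 0 (6 libraries and voom). Unadjusted p below 0.05 was reached there by 16, 59 and 5 receptors, PP2C and SnRK2 in the edgeR fit of all libraries, 11, 33 and 5 with 6 libraries, 14, 35 and 6 with voom and 16, 65 and 6 with DESeq2. With 1 library left out, 154 of 180 counts stayed within 1.5 times. In rehydrated against fresh leaves these ranged from 2 to 13 for receptors, 9 to 62 for PP2C and 0 to 5 for SnRK2, and in rehydrated against 2% RWC from 3 to 7 for SnRK2. The cause was not tested. Of 261 calls on named contigs, 189 held throughout, 72 were lost at least once, and none reversed. The 6-library fit lost 51, voom 35, the replicate block 10 and unique reads 1, while RLE factors, no filter and DESeq2 lost none. Median folds of all contigs shifted by at most 0.091 on the log2 scale with another scaling.

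Deviations of same-numbered libraries from the mean of their state correlated at -0.151 to 0.253, over 0.1 in 3 of 18 pairs. Of the 12 libraries, 7 correlated best with their own number. With 3 libraries a state, these values cannot decide whether replicate numbers pair the samples. With a replicate block, the calls at 60% against 100%, 2% against 100%, 2% against 60%, rehydrated against 2% and rehydrated against 100% RWC were 19, 16, 13, 16 and 5 for receptors, 87, 106, 82, 96 and 17 for PP2C and 5, 5, 8, 5 and 3 for SnRK2.

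Depth limits contigs with few reads: without a read in 3 libraries, only a bound on the fold can be given.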
